A study of Drosophila melanogaster with 4 samples.

Results

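The interior of chromosome arm 3R of *Drosophila melanogaster* was described through the regions enriched for histone H3 (clusters) that lie on it. A cluster of the series-wide list was a member when the mean of its start and end fell between positions 2000001 and 25905053 of 3R on FlyBase release 5, which leaves out 2 Mb at each end of the 27905053 bp arm. This gave 4089 of the 18424 clusters of that list (22.2%) and 4089 of the 4752 on 3R. The same span held 830 of 3717 clusters of ChIP replicate 1 and 496 of 2198 clusters of ChIP replicate 2. Clusters were chosen by position alone, so that their number, spacing, length and score played no part in the choice.

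Chromatin was taken from embryos of the wild-type strain Oregon-R, aged 14 to 16 h. The series had 4 libraries, namely 2 chromatin immunoprecipitations (ChIP) with 1 antibody against H3 and 2 inputs, which are chromatin DNA without immunoprecipitation. The labels give inputs and ChIP libraries the same replicate numbers, and strain, genotype and stage are common to the 4 libraries. No agent was compared, and the labels do not state that the replicates came from separate collections of embryos, so their spread may be technical.

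H3 is a core protein of the nucleosome, the spool around which DNA is wound. ChIP with a general H3 antibody maps where nucleosomes are recovered more or less often, and it commonly serves as the reference against which modified forms of H3 are read. Arm 3R is the right arm of chromosome 3. Position 1 lies on the side of the centromere, and it carries both Hox gene complexes, the gene clusters that set segment identity along the body axis. Which genes lie under a given cluster was not analysed here, and regions are given by position.

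H3 clusters were denser in the interior of 3R than in the interiors of 2L, 3L and X, in the series-wide list and in both replicates. Arm 2R was not compared. The series-wide list had 171.1 clusters per Mb on 3R, against 145.6 on 2L, 149.2 on 3L and 123.7 on X. Replicate 1 had 34.7 clusters per Mb on 3R, with 28.5 on 2L, 30.1 on 3L and 21.0 on X. In replicate 2 the densities were 20.7 on 3R, 15.7 on 2L, 16.4 on 3L and 13.5 on X. The order 3R, 3L, 2L, X was the same in the 3 lists, and 3L and 2L had overlapping intervals in each of them. The intervals of 3R and 3L also overlapped in replicate 1. In replicate 2 the interval of X overlapped those of 2L and 3L.

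**Figure D1:**
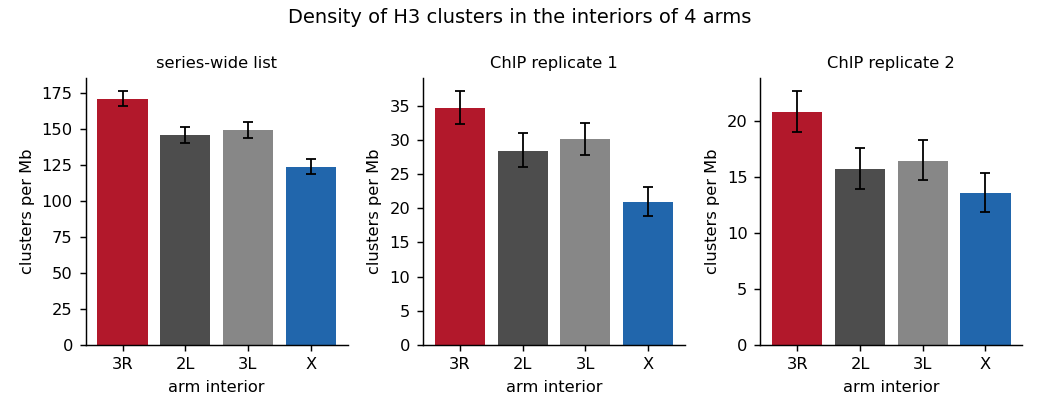
Clusters per Mb in the interiors of 3R, 2L, 3L and X in the series-wide list and in each ChIP replicate, with exact Poisson 95% intervals (counting error only). The bar of 3R is the highest in each panel, at 171.1, 34.7 and 20.7 clusters per Mb, and the vertical scale differs between panels.

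Taken over 2L, 3L and X together, density on 3R was 1.22 times as high in the series-wide list (exact binomial 95% interval 1.18 to 1.27). It was 1.30 times as high in replicate 1 (1.20 to 1.42) and 1.36 times in replicate 2 (1.22 to 1.52), a mean of 1.33 ± 0.041 (SD, n = 2). The smallest excess was that over 3L, at 1.15 in the series-wide list and 1.21 ± 0.078 in the replicates (SD, n = 2). The largest was that over X, at 1.38 and 1.60 ± 0.086 (SD, n = 2). These intervals cover counting error only. No test between arms was made, since an exact permutation of 2 replicate values against 2 cannot give a two-sided p under 0.333. The direction against X changed with a cut on score. With the series-wide list restricted to the 50% of its clusters that score highest, density on 3R was 0.975 times that of 2L, 3L and X together. Split by arm, a comparison added after the data were examined, it was 0.716 times that on X and 1.17 times that of 2L and 3L together. The cut was 1 score for all arms, and scores were higher on X as a whole. Their middle 50% ran from 0.43 to 0.51 on X and from 0.37 to 0.44 on 3R. The cut thus kept a larger share of the clusters of X than of 3R.

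Clusters covered 28.2% of the 23.9 Mb interior of 3R in the series-wide list, against 23.4% on 2L, 24.4% on 3L and 19.7% on X. The replicates covered 5.64% and 3.27% of 3R. Lengths differed less between arms than densities did. Median length was 1453 bp on 3R, with 1416, 1433 and 1426 bp on 2L, 3L and X in the series-wide list. In the replicates it was 1516.5 and 1486.5 bp, a mean of 1501.5 ± 21.2 bp (SD, n = 2). That mean was 1490.5 ± 33.2 bp on 2L, 1520.8 ± 37.8 bp on 3L and 1511.3 ± 6.01 bp on X, so that the arms differed from 3R by less than the replicates of 3R did.

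Cut into 239 complete bins of 100 kb, the interior of 3R had no bin without a series-wide cluster. The median bin held 17 clusters, the middle 50% of bins 14 to 21, and the extremes were 6 and 30. Replicate 1 had a median of 3 clusters per bin, a highest count of 10 and 10 empty bins. Replicate 2 had a median of 2, a highest count of 7 and 37 empty bins. Replicate 1 left 4.18% of bins empty on 3R, against 11.1% on 2L, 5.85% on 3L and 16.8% on X. For replicate 2 these shares were 15.5%, 26.3%, 21.0% and 28.8%, in the same order of arms. In 194 of 239 bins of 3R (81.2%) both replicates had at least 1 cluster, and 2 bins, 17600001-17700000 and 22300001-22400000, were empty in both. The series-wide list held 17 and 13 clusters in those bins.

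**Figure D2:**
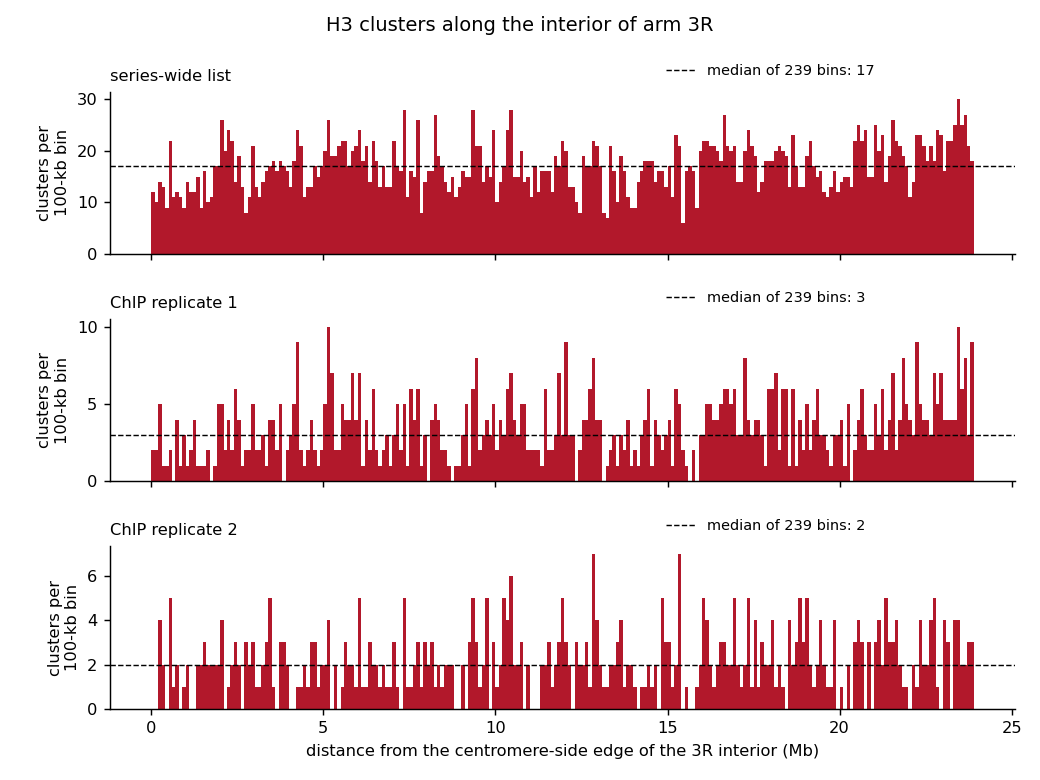
Number of clusters in each of the 239 complete 100-kb bins of the 3R interior, by distance from the centromere-side edge of the interior in Mb, for the series-wide list and each ChIP replicate. Dashed lines mark the medians of 17, 3 and 2 clusters per bin; bins at the left edge are low and bins near the right edge high in the series-wide list.

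The telomere side was the densest end of the interior. Over 4 equal parts of the interior, from the centromere side to the telomere side, the series-wide list had 159.6, 170.0, 165.3 and 189.2 clusters per Mb. Replicate 1 had 29.6, 32.6, 34.0 and 42.7 clusters per Mb, and replicate 2 had 17.2, 20.1, 22.4 and 23.3. The last part was thus the densest in each list and the first the sparsest. The last part had 1.19 times the density of the first in the series-wide list and 1.40 ± 0.064 times in the replicates (SD, n = 2). The rank correlation of bin count with position, across 239 bins of 1 arm that share library and depth, was 0.270 for the series-wide counts, 0.271 for replicate 1 and 0.153 for replicate 2. Median length over these 4 parts ran from 1411 to 1485 bp in the series-wide list, and median score from 0.40 to 0.41 on the log2 scale. Over the 23 complete 1-Mb windows, counts ranged from 123 at 2 to 3 Mb to 213 at 18 to 19 Mb in the series-wide list. Those windows held 21 and 49 clusters in replicate 1, and 15 and 29 in replicate 2.

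Neighbouring bins were alike in the series-wide list, and less so in the replicates. Spearman's rho between the counts of adjacent bins was 0.373 for the series-wide counts, 0.159 for replicate 1 and 0.039 for replicate 2. At a distance of 5 bins it was 0.116, 0.088 and -0.025. These correlations are descriptions across 238 and 234 pairs of bins. The replicates also had smaller counts per bin, and whether this accounts for their lower values was not tested.

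The densest bin of the series-wide list was 3R 25400001-25500000, with 30 clusters, and it held 10 clusters of replicate 1 and 4 of replicate 2. Bins 9300001-9400000 and 11300001-11400000 followed with 28 clusters each. They held 5 and 6 clusters of replicate 1, and 5 clusters of replicate 2 in both cases. The bin at 12.4 to 12.5 Mb also had 28 clusters, with 7 in replicate 1 and 6 in replicate 2. Bin 10200001-10300000 had 27, with 5 in replicate 1 and 1 in replicate 2, and 7 bins in all reached 27. Agreement with the replicates was thus fullest for replicate 1: all 5 were above its median of 3, and 4 of 5 above the median of 2 in replicate 2. They averaged 6.60 clusters in replicate 1 and 4.20 in replicate 2, against 3.47 and 2.08 over all bins.

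The emptiest bin was 3R 17400001-17500000, with 6 series-wide clusters, 2 clusters of replicate 1 and 0 of replicate 2. Bin 15200001-15300000 followed with 7, and 1 cluster in each replicate. Bins 4700001-4800000, 9800001-9900000 and 14400001-14500000 had 8 each, and 6 bins in all held 8 or fewer. Replicate 1 had 2, 1 and 2 clusters in these 3 bins, and replicate 2 had 3, 1 and 2. All 5 were below the median in replicate 1, and 3 of 5 in replicate 2, where bin 4700001-4800000 was above it. The series-wide list is by its name a set of these replicates, so this check is partly built in.

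Among stretches of 500 kb, the emptiest were low in both replicates, and the densest were less evenly matched. The densest, 25200001-25700000, held 129 series-wide clusters over 43.5% of its length, against a median of 85 over the 235 stretches of 5 neighbouring bins. It had 32 clusters in replicate 1, where 0.426% of stretches had more, and 12 in replicate 2, where 23.8% had more. The next ones, 3900001-4400000 and 22400001-22900000, held 109 and 108 series-wide clusters. Replicate 1 had 18 and 17 clusters there, near its median of 17, and replicate 2 had 9 and 13, with a median of 10. The stretch at 22400001-22900000 was thus high in replicate 2, where 17.4% of stretches had more, and not in replicate 1, where 46.8% had more. The stretch at 3900001-4400000 did not stand out in either replicate, where 38.3% and 62.1% of stretches had more clusters. The emptiest stretches were 2600001-3100000 with 57 clusters, 2000001-2500000 with 58 and 15700001-16200000 with 59. Each of these was low in both replicates, with 9, 11 and 10 clusters in replicate 1 and 6 in replicate 2 for all 3. In replicate 1 at least 82.6% of stretches had more clusters than any of these, and in replicate 2 the share was 86.0%.

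The windows around the Hox complexes differed in density. In release 5 the Antennapedia complex, which patterns head and anterior thorax, lies between about 2.4 and 2.9 Mb, and the bithorax complex, which patterns posterior thorax and abdomen, between about 12.4 and 12.9 Mb. These positions are general knowledge and were not checked against an annotation here. The Antennapedia window held 65 series-wide clusters, with 8 in each replicate. More clusters were held by 89.8% of 500-kb stretches in the series-wide count, 95.3% in replicate 1 and 71.5% in replicate 2. The bithorax window held 92, with 24 in replicate 1 and 13 in replicate 2, and 34.0% of stretches had more by the series-wide count, 13.6% by replicate 1 and 17.4% by replicate 2. Within it the bin at 12.4 to 12.5 Mb had 28 series-wide clusters and the other 4 bins 14 to 20, with a median of 17 over all bins. In the Antennapedia window the bin at 2.5 to 2.6 Mb held 22, and the other 4 bins 9 to 12. That window lies within 2 to 3 Mb, the complete 1-Mb window with the fewest series-wide clusters.

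Bins that were dense in 1 replicate were also denser in the other, which the series-wide list had no part in. The 47 bins densest in replicate 1 (20% of bins) averaged 2.55 clusters in replicate 2, against 1.49 in the 47 bins sparsest in replicate 1, a ratio of 1.71. Ranked by replicate 2, the densest 47 bins averaged 4.62 clusters of replicate 1 and the sparsest 47 averaged 2.70, again a ratio of 1.71. The densest bins of both replicates had 15 in common, which is 31.9% of each set, where 19.7% of all bins belong to such a set. In 4 bins replicate 1 was among its densest and replicate 2 among its sparsest, and in 2 bins the reverse held. Ties at the limits were broken by position, so that tied bins nearer the telomere counted as densest and those nearer the centromere as sparsest. Counts also rose toward the telomere in both replicates. How far this moved the ratios and the 15 shared bins was not tested.

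**Figure D3:**
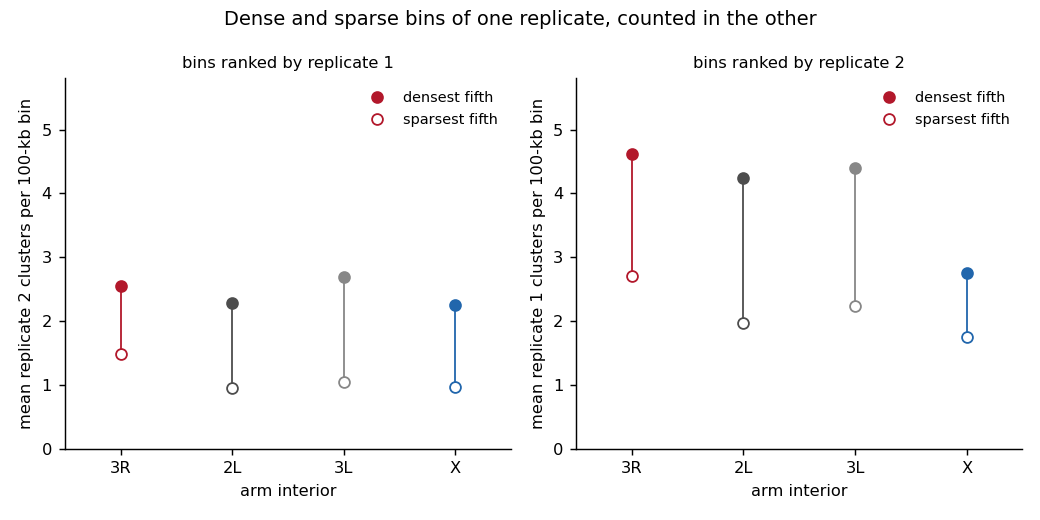
Mean number of clusters per 100-kb bin of 1 replicate in the bins that are densest (filled, 20% of bins) and sparsest (open, 20% of bins) in the other replicate, for the interiors of 3R, 2L, 3L and X. On 3R the means are 2.55 and 1.49 for replicate 2 and 4.62 and 2.70 for replicate 1, and the open point of 3R is the highest of the 4 arms in both panels.

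Of the bins dense in both replicates, 14800001-14900000 had the highest sum, with 8 and 7 clusters in replicates 1 and 2 and 22 in the series-wide list. Bins 7100001-7200000 and 25400001-25500000 followed with 10 and 4 each, and 26 and 30 in the series-wide list. The bin 14800001-14900000 was thus among the strongest in both replicates without being among the 5 densest of the series-wide list. Other bins stood out in 1 replicate alone. Bin 6200001-6300000 had 9 clusters in replicate 1 and 1 in replicate 2, and bin 2500001-2600000 had 2 in replicate 1 and 5 in replicate 2.

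Averaged over both directions of this check, the ratio of dense to sparse bins was lower on 3R than on 2L, 3L and X. The mean of both ratios was 1.71 ± 0.0040 on 3R, against 2.28 ± 0.191 on 2L, 2.26 ± 0.425 on 3L and 1.94 ± 0.525 on X (SD of the 2 directions). Both directions use the same pair of replicates, so this SD does not measure spread between independent values. Taken singly, the ratio on X was 2.31 in replicate 2 but 1.57 in replicate 1, below the 1.71 of 3R. For X the difference from 3R was smaller than the SD between directions. With a single pair of replicates per arm, none of these differences could be tested. In raw counts the sparsest bins of 3R held more clusters than those of 2L, 3L and X, as did the bins of 3R as a whole. Replicate 2 averaged 1.49 clusters in the bins sparsest in replicate 1 on 3R, against 0.947 on 2L, 1.05 on 3L and 0.972 on X. For replicate 1 in the bins sparsest in replicate 2 these means were 2.70, 1.97, 2.24 and 1.75. Over all bins, replicate 2 averaged 2.08 clusters on 3R, 1.57 on 2L, 1.64 on 3L and 1.35 on X. Replicate 1 averaged 3.47, 2.85, 3 and 2.10 over all bins, in the same order of arms. The means of the sparsest bins were not scaled to these. Spearman's rho between the replicates over the bins was 0.276 on 3R (Pearson's r = 0.280), against 0.407 on 2L, 0.310 on 3L and 0.275 on X, as a description across bins that share library and sequence.

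Unevenness was also measured as the variance of bin counts over their mean, which is 1 when clusters fall independently at an even rate. On 3R it was 1.31 in the series-wide list, against 1.55 on 2L, 1.55 on 3L and 1.53 on X. Replicate 1 gave 1.30 on 3R, with 1.35, 1.29 and 1.26 on 2L, 3L and X, so that 3R did not stand lowest there. Replicate 2 gave 1.07 on 3R, with 1.43, 1.39 and 1.17 on 2L, 3L and X. Merging neighbours within 1000 bp into 1 cluster lowered the series-wide value on each of the 4 arms, to 0.531 on 3R, 0.870 on 2L, 0.823 on 3L and 0.975 on X. Clusters have a minimum length and do not overlap, and merged ones lie more than 1000 bp apart, so that they do not fall independently. A value of 1 is thus not an exact reference for them. How far length, spacing or merging moved these values was not tested.

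Gaps between neighbouring series-wide clusters on 3R had a median of 2532 bp, and the middle 50% ran from 919 to 5553.5 bp. The median was 7148 bp in the upper 50% by score and 4373 bp at the minimum length of the replicate lists, and both settings leave fewer clusters by construction. The median gap was 3189 bp on 2L, 2913 bp on 3L and 3753 bp on X. Gaps of at most 1000 bp made up 26.6% of 4088 gaps on 3R, against 21.2% on 2L, 23.6% on 3L and 18.1% on X. Gaps of 20 kb or more made up 1.88% on 3R, against 3.72%, 3.43% and 5.97% on 2L, 3L and X. Both ends of the distribution were thus shifted to shorter gaps on 3R. In the replicates the median gap on 3R was 16700 and 30944 bp, the shortest of the 4 arms in each.

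**Figure D4:**
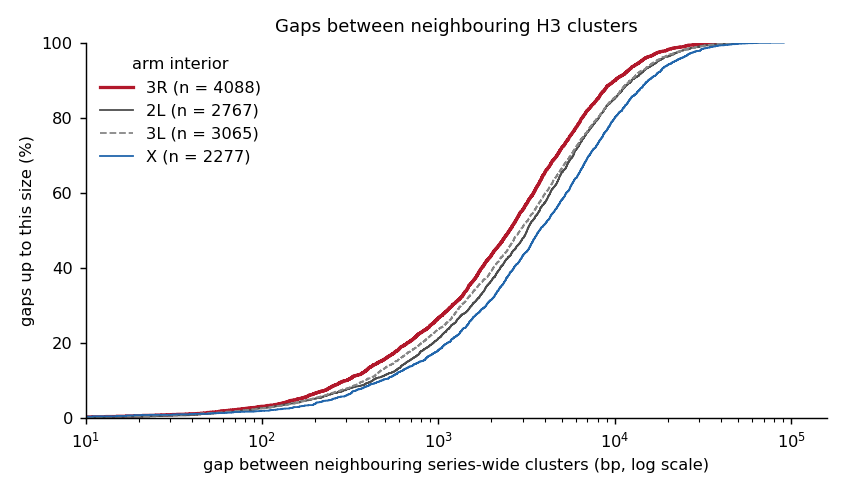
Cumulative share of the gaps between neighbouring series-wide clusters (%) by gap size (bp, log scale) in the interiors of 3R, 2L, 3L and X. The curve of 3R lies left of the others over most of its range, with medians of 2532 bp on 3R, 3189 bp on 2L, 2913 bp on 3L and 3753 bp on X.

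Joined across gaps of at most 1000 bp, the 4089 clusters of 3R formed 3001 groups, of which 2244 were single clusters and 22 held 5 or more. The largest group had 8 clusters over 15459 bp, at 25461168-25476626, inside the densest bin of the arm. Replicate 1 had 3 clusters there and replicate 2 had 0. In the replicates on their own, the largest groups had 3 clusters (6239924-6246366, replicate 1) and 2 clusters.

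The longest gap of the series-wide list was 17859763-17909097, of 49335 bp. Neither replicate had a cluster in it, and the cluster-free stretch around it was 127442 bp long in replicate 1 and 138202 bp in replicate 2. After it came 6595173-6640851, which measured 45679 bp. One cluster of replicate 1 reached into it from its edge, with its midpoint outside, and none of replicate 2. The gaps 9820005-9863755, 15131681-15175225 and 20852387-20894167 measured 43751, 43545 and 41781 bp, and neither replicate had a cluster in any of them. Together the 77 gaps of 20 kb or more took up 2.09 Mb, 8.75% of the interior. Their span held the midpoints of 0 clusters of replicate 1 and 3 of replicate 2, or 1.43 per Mb, against 20.7 per Mb over the whole interior in replicate 2. Nearly every replicate cluster overlaps a series-wide one, so that few could fall into these gaps.

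The longest gaps of the replicates were not empty in the other lists. Replicate 1 had no cluster over 257537 bp at 3629464-3887000, where the series-wide list had 30 and replicate 2 had 5. Replicate 2 had none over 394426 bp at 12984171-13378596, where the series-wide list had 52 and replicate 1 had 7. Both spans therefore held clusters in the replicate that did not define them. In each 100-kb bin wholly inside the gap of replicate 2, replicate 1 had 2 clusters, below its median of 3. In the bin wholly inside the gap of replicate 1, replicate 2 had 2, equal to its median.

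Most series-wide clusters of 3R overlapped no cluster of either replicate list. Of the 4089 series-wide clusters, 1163 overlapped a cluster of either replicate by at least 1 bp (28.4%, exact 95% interval 27.1 to 29.9), where 28.1% of the whole list did. Replicate 1 was overlapped by 804 (19.7%, against 19.6% of the whole list) and replicate 2 by 480 (11.7%, against 11.5%). Both replicates were overlapped by 121 clusters (2.96%, interval 2.46 to 3.53), where 3.04% of the whole list did so. All 4 shares on 3R were thus near those of the whole list. Between the replicates, 110 of 830 clusters of replicate 1 met one of replicate 2 (13.3%, interval 11.0 to 15.8), where 13.8% of its whole list did. In the other direction 109 of 496 did (22.0%, interval 18.4 to 25.9), where the whole list of replicate 2 had 23.2%. In the series-wide list 814 of the 830 replicate 1 clusters (98.1%) and 482 of the 496 replicate 2 clusters (97.2%) had an overlapping cluster. On 2L, 3L and X these shares were close to those of 3R, at 97.0%, 97.6% and 97.7% for replicate 1. For replicate 2 they were 95.6%, 96.1% and 95.2%.

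Clusters found in more lists were longer. Median length was 2725 bp for the 121 clusters in both replicates, 1895 bp for the 683 in replicate 1 only, 1821 bp for the 359 in replicate 2 only, and 1293 bp for the 2926 in neither. Median scores of these classes were 0.46, 0.41, 0.41 and 0.40 on the log2 scale. Of the 1576 clusters shorter than the shortest replicate cluster, 5.27% overlapped a replicate (exact 95% interval 4.22 to 6.49). The share was 32.9% of the 1746 clusters from there to under 2000 bp, 62.0% of the 555 from 2000 to under 3000 bp, and 75.9% of the 212 of 3000 bp or more (interval 69.6 to 81.5). Of those 212, 50 overlapped both replicates. A longer cluster has more bases on which another can fall, and the replicate lists start at a greater minimum length, so part of this order is built in.

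**Figure D5:**
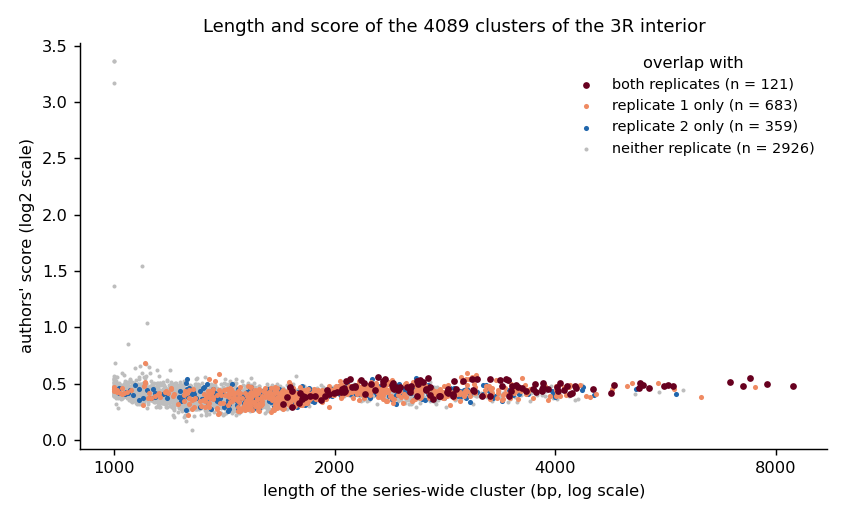
Length (bp, log scale) against the authors' score (log2 scale) of the 4089 series-wide clusters of the 3R interior, coloured by overlap with both replicates, 1 replicate or neither. Clusters in both replicates lie to the right with a median length of 2725 bp, and the 6 clusters scored above 1 are all grey and at most 1109 bp long.

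The share of clusters that overlapped a replicate was somewhat higher in denser bins. With the bins in 5 classes from sparsest to densest in the series-wide list, it was 24.6%, 26.9%, 27.8%, 29.7% and 30.5% of clusters. The exact 95% intervals of the sparsest class (21.0 to 28.6) and the densest class (27.9 to 33.3) overlapped. Median length in these classes was 1326, 1445, 1444, 1476 and 1487 bp. Dense bins thus held somewhat longer clusters. Whether length accounts for the shares was not tested. Across bins with at least 3 clusters, rank correlation of count with median length was 0.231 in the series-wide list (239 bins), -0.041 in replicate 1 (146 bins) and 0.018 in replicate 2 (80 bins). With median score it was 0.110, -0.033 and -0.0048, so that no direction was shared by the 3 lists.

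Scores on 3R were like those of 2L and 3L. On the log2 scale the series-wide median was 0.41, that of replicate 1 was 0.54 and that of replicate 2 was 0.67, against 0.40, 0.54 and 0.66 on 2L and 0.41, 0.54 and 0.68 on 3L. On X it was 0.47, 0.62 and 0.80. The middle 50% of series-wide scores on 3R lay between 0.37 and 0.44. Longer clusters of a replicate tended to score higher, with Spearman's rho of 0.258 in replicate 1 (830 clusters) and 0.162 in replicate 2 (496 clusters), while it was -0.050 in the series-wide list. For the 110 clusters of replicate 1 that overlapped replicate 2, scores were related with rho = 0.269 and Pearson's r = 0.263, as a description across clusters. Neighbouring clusters of the series-wide list were barely alike, with rho of 0.039 for length and 0.058 for score over 4088 pairs.

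The longest cluster was 18329954-18338402, of 8449 bp and with a score of 0.48. It overlapped 3 clusters of replicate 1, the highest scored 0.71, and 1 of replicate 2, scored 0.57. It was also the longest of those in both replicates. Cluster 18906238-18914016 followed with 7779 bp and a score of 0.50, with 2 clusters of replicate 1 and 1 of replicate 2. Cluster 19650930-19658424 had 7495 bp and 3 clusters of replicate 1 but none of replicate 2. Cluster 7186098-7193474 had 7377 bp and a score of 0.55, with 1 cluster of replicate 1 and 2 of replicate 2. Cluster 20838786-20845988 had 7203 bp, with 2 and 1. Of these 5 clusters, 4 thus had a counterpart in both replicates, and none lay among the 5 densest bins.

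The highest scores belonged to very short clusters that neither replicate listed. Clusters 8295712-8296712 and 24596042-24597042 had a score of 3.36 each, 11444622-11445622 had 3.17, 15990630-15991722 had 1.55 and 6788124-6789124 had 1.36. Of these, 4 measured 1001 bp, the minimum of the list, and the fifth 1093 bp. The top score exceeded the most frequent score of the series-wide list, 0.36, by 3 on the log2 scale. In all, 6 clusters of 3R scored above 1, and none overlapped a replicate cluster. All 6 were shorter than any replicate cluster, a length at which 5.27% of the clusters of 3R overlapped one, so that their count of 0 says little. The highest score among clusters in both replicates was 0.56, at 24870022-24872312, with 0.67 in replicate 1 and 0.85 in replicate 2. The middle 50% of scores was no wider for short clusters, although their full range was. Below the shortest replicate length scores ran from 0.085 to 3.36, and from there to under 2000 bp from 0.22 to 0.59. The middle 50% of scores lay between 0.38 and 0.44 below the shortest replicate length, between 0.35 and 0.42 from there to under 2000 bp, and between 0.40 and 0.47 at 3000 bp or more.

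Within the replicates the longest cluster of 3R was 5481740-5486705 in replicate 1, with 4966 bp and a score of 0.61, and it had no counterpart in replicate 2. In replicate 2 it was 24399933-24403544, with 3612 bp and a score of 0.86, and its counterpart in replicate 1 scored 0.49. The highest-scored cluster of replicate 1, 12581522-12582910 at 0.78, and that of replicate 2, 20042481-20043785 at 0.97, had no counterpart in the other replicate. All 4 overlapped a series-wide cluster.

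The clusters nearest the boundaries were the following. Just outside the lower one lay 1994236-1996018 and 1998158-2000536, with scores of 0.31 and 0.45, and just inside it 2010048-2011116 and 2014338-2015476, with 0.40 and 0.39. Just inside the upper one lay 25896536-25899788 and 25900816-25903426, with 0.54 and 0.38, and just outside it 25904850-25908202 and 25910106-25911242, with 0.51 and 0.53. Of these 4, the 3 scored above 0.5 lay past the middle 50% of the scores of 3R, on both sides of the boundary, and 2 of them measured 3253 and 3353 bp.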

How the data were processed

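Per the labels' protocols, embryos were fixed with 1.8% formaldehyde and chromatin was incubated with antibody for 15 h. The submitters' processing notes list Bowtie 0.12.7. Coordinates follow FlyBase release 5, per the file headers. The sources used here name no cluster caller or threshold and do not say how the series-wide list was made. The authors deposited 1 score per cluster, on a log2 scale. The scale was taken from the values: in base 2, 99.1% or more of the scores of each list lay a simple ratio away from the most frequent one, to within a relative tolerance of 1e-10 and with no denominator above 1000. In base e or 10 at most 2.05% did. What the score compares is not stated. Read depth is unknown, and the intervals rest on the number of clusters alone.

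Clusters were counted by midpoint in complete 100-kb bins from position 1 of the arm. A gap is the number of bases between neighbouring clusters. Overlap was at least 1 bp. Interiors of 2L, 3L and X were cut in the same way. Intervals are exact at 95% and cover counting error only. No p-value was computed. Clusters and bins are not replicates. Regions were named by rule: the 5 densest and emptiest bins, 3 densest and emptiest 500-kb stretches, 5 longest gaps, 5 longest and 5 highest-scored clusters, the longest and highest-scored in both replicates, 2 on each side of each boundary, and the Hox windows. Bins dense, sparse or empty in the replicates, their longest gaps and their longest and highest-scored clusters were named after their values were seen. Members, rules and comparisons were chosen with earlier results of these data known. Counting and overlap were tested on simulated data. Tables were read with pandas 2.3.3 under Python 3.11.15, intervals came from scipy 1.17.1 with numpy 2.4.6, and plots from matplotlib 3.10.9. Sequences and gene annotation of release 5 were not used here.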

Additional observations from a re-analysis of the deposited data

How the results depend on the processing

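Of 82 alternatives to 12 results, 21 stayed within the margin. The margin was 1.5 times for the number of clusters and the exact interval for shares. It was the second decimal for the replicate correlation and 1 SD of the replicates elsewhere. For the dense over sparse ratio, that SD was between both directions of the same replicate pair. The SD rests on 2 values, and for the median gap it is 10072 bp, so that 7148 bp in the upper 50% by score, 3795 bp with neighbours merged and 4373 bp at the replicates' minimum length fell within it although they exceed 2532 bp. The higher density of 3R over 2L, 3L and X held its direction in 10 of 12 alternatives. In the upper 50% by score, a cut common to all arms that kept a larger share of X than of 3R, it was 0.975. Added after the data were examined, it was 0.716 there against X alone but 1.17 against 2L and 3L. It was 1.14 with neighbours within 1000 bp merged, 1.16 against 2L and 3L, 1.38 against X, 1.27 with 4 Mb left out at each end, and 1.30 to 1.36 in single replicates. No paired analysis was possible because the inputs, which share replicate numbers with the ChIP libraries, have no cluster counts of their own here. The arm ratios are formed within each replicate.

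In the upper 50% by score there were 1717 clusters, 7 per median bin, a median length of 1375 bp, a replicate correlation of 0.188, overlap shares of 21.3% and 7.87%, a dense over sparse ratio of 1.95 and a density to score correlation of 0.066. Merging gave 13 per bin, a variance over mean of 0.531, 1689 bp, correlations of 0.270 and 0.193, an overlap share of 34.4% and a ratio of 1.68. At the replicates' minimum length there were 2513 clusters, 11 per bin, a variance over mean of 1.49, 1755 bp, an overlap share of 43.0% and a density to score correlation of 0.162. Bins of 50 kb gave 9 clusters, a variance over mean of 1.03, correlations of 0.207 and 0.035 and a ratio of 1.77. Bins of 200 kb gave 33, 1.88, 0.386, 0.192 and 1.87, in the same order. Bins moved by 50 kb gave a replicate correlation of 0.259 and a ratio of 1.67. Overlap of 50% of both clusters gave 24.8% for series-wide clusters and 9.76% for replicate 1, and of 50% of the counted cluster 24.9% and 10.2%.

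Each replicate alone gave 496 to 830 clusters, 2 to 3 per bin, a variance over mean of 1.07 to 1.30, a median gap of 16700 to 30944 bp, 1486.5 to 1516.5 bp, a median score of 0.54 to 0.67, an overlap share of 11.7% to 19.7% and a density to score correlation of -0.033 to -0.0048, of the opposite sign. Shorter lists hold fewer clusters by construction; for the other changes the cause was not tested.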
